A study of Mus musculus with 4 samples.

Results

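Imprinted genes are transcribed mainly from the allele inherited from one parent, and 44 of them, listed by name, were looked up by gene identifier among the 24116 genes of the count table. All 44 were found, *Nespas* under the synonym *Gnasas1*. They fell into 19 units, 11 clusters with several of the listed genes and 8 genes listed alone. By what is known of them, 24 are expressed from the paternal allele, 18 from the maternal allele, and *Grb10* and *Gnas* from either allele depending on tissue or isoform. Of the 44 genes, 16 lie on chromosome 7 and 6 on chromosome 6, and the latter are marked throughout.

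Imprinting rests on DNA methylation that is laid down differently in egg and sperm at germline differentially methylated regions (DMRs) and is kept after fertilization, when most other methylation is erased. ZFP57 binds a methylated hexamer in these regions and, through TRIM28, recruits histone and DNA methyltransferases that keep the mark. In a cluster, a single DMR often controls several genes at once, through a boundary bound by CTCF or through a long noncoding RNA that silences its neighbours on the same chromosome. Many of these genes act on the growth of the embryo and placenta, with paternally expressed genes often promoting growth and maternally expressed genes often restraining it, and embryonic stem cells (ESCs) in culture are known to lose or gain imprints.

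The libraries came from C57BL/6 ESCs without *Terc*, the RNA template of telomerase, and from wild-type (WT) ESCs, with 2 biological replicates of each. The *Terc*-/- cells were of the third generation (G3) bred without telomerase, line F35, and the WT cells were line N12, so genotype and line cannot be told apart. Both lines were grown on feeder cells in serum with leukemia inhibitory factor, and poly(A) RNA was sequenced, which also takes up feeder RNA. The libraries held 22057607 and 22520017 gene counts (WT) and 21898081 and 18047995 (G3 *Terc*-/-). Counts below are given as deposited, WT replicates 1 and 2 first, and the shallower G3 *Terc*-/- replicate 2 has to be read against its smaller total, whereas CPM and fold changes are scaled. *Terc* had 7 and 2 counts in WT, against 0 and 0 in G3 *Terc*-/-, and a 0 allows for as many as 3. None of the 15 ESC markers was at 0. In G3 *Terc*-/- ESCs, 10 of them were higher (66.7%, against 21.7% of all genes tested), by p first *Nanog*, *Tfcp2l1* and *Tdgf1*. Another 5 were lower (33.3%, against 21.8%), first *Dppa5a*, *Cdh1* and *Lin28a*. The summed level of the 15 was 8179 and 8306 CPM (TMM-scaled counts per 1000000) in WT, against 9371 and 9756 in G3 *Terc*-/-. The counts do not tell the parental alleles apart, so which allele gave the reads was not measured, and p-values measure only the spread between these libraries.

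Of the 44 imprinted genes, 42 had enough counts to be tested among 14896 genes with edgeR's quasi-likelihood test and Benjamini-Hochberg adjustment. The paternally expressed *Rtl1* (1 and 0 counts in WT, 1 and 1 in G3 *Terc*-/- libraries) and *Rasgrf1* (0 and 2, then 2 and 0) were barely detected and were not tested. Expression was higher in G3 *Terc*-/- ESCs for 12 imprinted genes (28.6%, against 21.7% of all genes tested) and lower for 15 (35.7%, against 21.8%) at an adjusted p under 0.05, whatever the size of the change. At a fold change over 2 and an unadjusted *P* under 0.05, 4 were higher (4.73% of all genes tested were) and 3 were lower (3.13% of all genes tested were). The 4 were *Dio3*, *Plagl1*, *Magel2* and *Mirg*, and the 3 were *Igf2*, *Peg10* and *Ppp1r9a*, of which *Mirg* alone missed the adjusted threshold. Most changes were small, since 21 of the 27 genes called had a fold change under 2. The median log2 fold change was -0.02 over the imprinted genes tested and 0.006248 over all genes tested, so the imprinted genes showed no shared direction. The libraries of the genotypes did not overlap for 30 of the 42 genes (71.4%), and the same held for 70.4% of all genes tested. Imprinted genes were not unusual in abundance, with a median of their mean counts of 463.4 against 441.6 over all genes tested. In RNA of a whole culture, fewer cells of a type and less RNA per cell cannot be told apart.

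**Figure D1:**
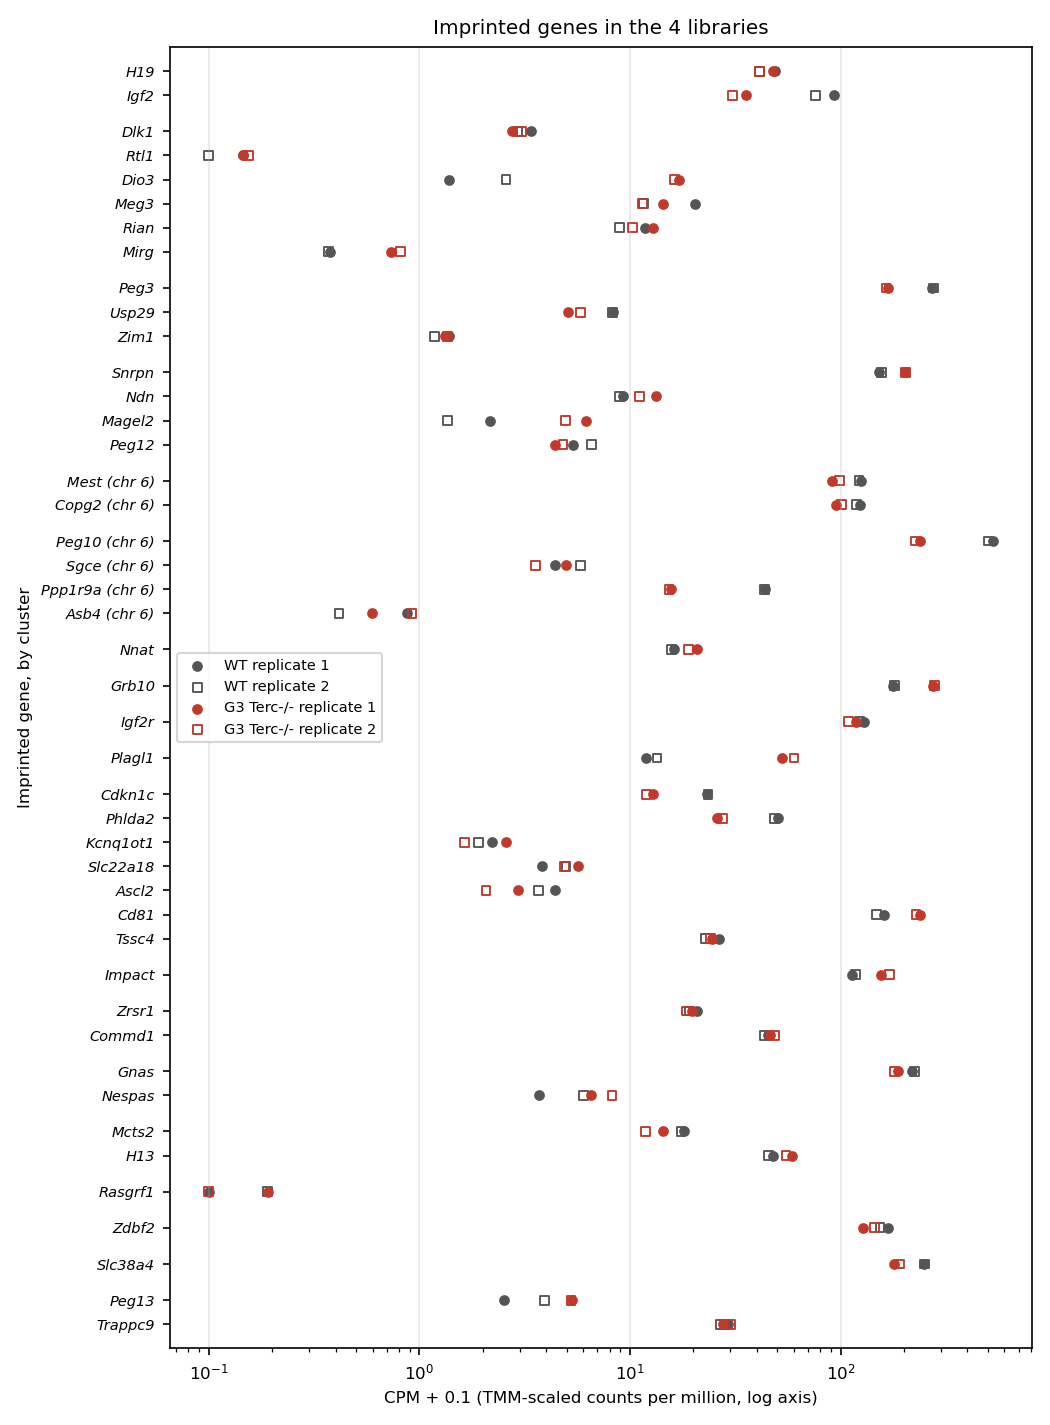
Level of the 44 imprinted genes in each of the 4 libraries, as TMM-scaled CPM plus 0.1 on a log axis, ordered by cluster. Points are single libraries, grey for WT and red for G3 Terc-/-, filled for replicate 1 and open for replicate 2, and genes on chromosome 6 are marked. *Dio3*, *Magel2* and *Plagl1* stood higher, and *Igf2*, *Peg10* and *Ppp1r9a* lower, in both G3 *Terc*-/- libraries than in both WT libraries, while *Rtl1* and *Rasgrf1* lay at the lower edge.

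Per kilobase of exon, the most abundant imprinted transcript in WT ESCs was *Peg10* with 77.2 CPM per kilobase, followed by *Snrpn* with 71.5, *Slc38a4* with 58.5, *Cd81* with 53.6 and *Phlda2* with 44.1. In G3 *Terc*-/- ESCs the order changed to *Snrpn* with 93.6 CPM per kilobase, *Cd81* with 80.9, *Slc38a4* with 43.4, *Peg10* with 34.9, *Impact* with 31.8, *Grb10* with 30.4 and *Mest* with 24.1. *Kcnq1ot1* (0.0210 CPM per kilobase) and *Mirg* (0.0374) were lowest among the genes tested in WT ESCs.

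*Plagl1* (gene identifier 22634, chromosome 10 of GRCm38 from 13090832 to 13131694), a paternally expressed zinc-finger transcription factor known to regulate other imprinted genes, was the gene with the smallest p among the imprinted genes. It had 259 and 296 counts in WT, against 1171 and 1095 in G3 *Terc*-/-. Its level rose from 12.6 ± 1.05 (SD, n = 2) to 56.4 ± 5.10 CPM (SD, n = 2), which was 4.48-fold, with a log2 fold change of 2.16 (standard error, SE, 0.09, edgeR adjusted p = 1.40e-23). Its 10 tested neighbours, those that start within 1 Mb and are not among the listed genes, differed between genotypes by a median of -0.07 on the log2 scale. *Plagl1* has its maternally methylated germline DMR at the promoter. The 250 bases before its start are shown with those before a start of *Mest*, a paternally expressed gene with the same kind of DMR that changed the other way, because both windows hold the ZFP57 hexamer TGCCGC or its reverse complement GCGGCA, in capitals.
Plagl1 (chr10:13090582-13090831, plus strand): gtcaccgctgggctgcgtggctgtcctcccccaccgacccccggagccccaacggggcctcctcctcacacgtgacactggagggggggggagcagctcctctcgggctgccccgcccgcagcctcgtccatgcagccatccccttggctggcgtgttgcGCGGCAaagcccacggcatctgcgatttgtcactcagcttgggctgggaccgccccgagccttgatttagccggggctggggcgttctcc
Mest (chr6:30737803-30738052, plus strand): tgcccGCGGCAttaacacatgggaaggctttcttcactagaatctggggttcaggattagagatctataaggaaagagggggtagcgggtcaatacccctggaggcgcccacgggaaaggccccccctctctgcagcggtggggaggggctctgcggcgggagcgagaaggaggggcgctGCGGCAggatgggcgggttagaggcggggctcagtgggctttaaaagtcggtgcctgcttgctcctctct

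The bases, like the windows below, are from the RefSeq promoter table of GRCm38.p6, in which 35 of the 44 imprinted genes had at least 1 window of 300 bases (250 before and 50 after the start) and 9 had none. The hexamer, searched on both strands, was in 13 of 54 windows of imprinted genes (24.1%) and in 3809 of 32817 windows of all genes (11.6%). Some genes have starts a few bases apart, so that the same hexamer falls in 2 windows, as for *Mest*. Counted by gene, 12 of the 35 imprinted genes with a window held it (34.3%), against 3523 of 26994 genes (13.1%). It was in 5 of 9 genes with a maternally methylated germline DMR at the promoter, in 7 of the other 26, in 4 of 9 imprinted genes that rose and in 5 of 13 that fell. The windows of imprinted genes held a median of 14.5 CG pairs, against 7 over all windows. Of the 14 genes with such a DMR, 6 were higher (42.9%, against 21.7% of all genes tested) and 5 lower (35.7%, against 21.8%). The other 3 were not past the threshold.

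In the *Dlk1*-*Dio3* cluster on chromosome 12, *Dio3* stood apart. *Dio3* (identifier 107585, chromosome 12 from 110279230 to 110281097), a paternally expressed gene that encodes the deiodinase that inactivates thyroid hormone, had 28 and 55 counts in WT, against 378 and 294 in G3 *Terc*-/-. Its level rose 8.81-fold, from 1.88 ± 0.847 (SD, n = 2) to 16.6 ± 0.659 CPM (SD, n = 2), with a log2 fold change of 3.13 (SE 0.18, edgeR adjusted p = 1.14e-18). That was the largest change among the 42 imprinted genes tested. *Dlk1*, a paternally expressed Notch-family ligand, had 72 and 63 counts in WT, against 59 and 54 in G3 *Terc*-/- (log2 fold change -0.13, edgeR adjusted p = 0.672). The maternally expressed noncoding RNAs *Meg3*, *Rian* and *Mirg* did not pass the threshold. *Meg3* had 441 and 255 counts in WT, against 315 and 208 in G3 *Terc*-/-, and its log2 fold change was -0.30 (SE 0.15, edgeR adjusted p = 0.0957). Without WT replicate 2 it was -0.65 (adjusted p = 1.76e-05), without G3 *Terc*-/- replicate 1 it was -0.48 (adjusted p = 0.00179), and without WT replicate 1 it was 0.16, the opposite sign. With all 4 libraries it also passed with no filter on low counts (adjusted p = 0.0175) and with the replicate number as a block (adjusted p = 0.0114). For *Rian*, with 254 and 196 counts in WT, against 284 and 185 in G3 *Terc*-/-, the log2 fold change was 0.17 (edgeR adjusted p = 0.309). *Mirg*, which hosts many microRNAs, rested on 6 counts in each WT library and 14 and 13 in the G3 *Terc*-/- libraries (log2 fold change 1.28, SE 0.54, edgeR adjusted p = 0.0526). The 24 tested neighbours of the cluster within 1 Mb differed between genotypes by a median of -0.06 on the log2 scale. The 250 bases before the start of *Dio3* are shown as those of the most changed gene. They hold 21 CG pairs (25 in the full window of 300 bases) and no ZFP57 hexamer.
Dio3 (chr12:110278980-110279229, plus strand): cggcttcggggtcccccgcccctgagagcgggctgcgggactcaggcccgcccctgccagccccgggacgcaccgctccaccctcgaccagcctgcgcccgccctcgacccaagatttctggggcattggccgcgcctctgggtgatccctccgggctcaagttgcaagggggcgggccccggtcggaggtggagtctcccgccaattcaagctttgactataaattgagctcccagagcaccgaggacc

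In the *H19*-*Igf2* cluster on chromosome 7, *Igf2* fell and *H19* gave no change past the threshold. *Igf2* (identifier 16002, chromosome 7 from 142650768 to 142666816), the paternally expressed insulin-like growth factor, had 2038 and 1683 counts in WT, against 789 and 556 in G3 *Terc*-/-. Its level went from 84.6 ± 12.3 (SD, n = 2) to 33.0 ± 3.61 CPM (SD, n = 2), 2.56-fold lower, with a log2 fold change of -1.35 (SE 0.08, edgeR adjusted p = 6.47e-18). *H19*, the maternally expressed noncoding RNA that shares enhancers with *Igf2*, had 1059 and 914 counts in WT, against 1053 and 748 in G3 *Terc*-/- (log2 fold change -0.02, SE 0.08, edgeR adjusted p = 0.892). The level of *H19* was 44.9 ± 5.14 (SD, n = 2) CPM in WT, against 44.2 ± 4.59 (SD, n = 2) without *Terc*, and its libraries overlapped. Reads of *Igf2* could be shared with the read-through gene *Gm49394*, which covers 62.8% of its exon bases on the same strand. The 16 tested neighbours differed between genotypes by a median of -0.0007026 on the log2 scale.

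Fibroblasts are known to express *H19*, *Igf2* and *Meg3*, and markers of feeders were read beside them. None of the 28 feeder markers was at 0. Their summed level was 2286 and 1923 CPM in WT, against 3182 and 2755 CPM in G3 *Terc*-/-. Of the 27 tested, 12 were higher (44.4%, against 21.7% of all genes tested) and 1 lower (3.7%, against 21.8%), with a median log2 fold change of 0.41. By p, the first of the higher were *Fstl1*, *Vim* and *Fn1*, and the lower was *Tagln*. *Fstl1*, *Vim* and *Fn1* made up 93.8% of the difference in the sum, and the other 25 markers summed to 860 and 672 CPM in WT, against 920 and 719 CPM in G3 *Terc*-/-. Of the collagen genes listed, *Col3a1*, *Col5a1*, *Col6a1* and *Col6a3* were higher, with log2 fold changes of 0.52, 0.58, 0.65 and 0.51. *Col1a1* (0.16, edgeR adjusted p = 0.304), *Col1a2*, *Col5a2* and *Col6a2* did not pass the threshold. Most feeder markers were higher in replicate 1 than in replicate 2, with 27 of 28 higher in WT replicate 1 and 25 of 28 higher in G3 *Terc*-/- replicate 1. No library held feeders alone, so which cells gave this RNA was not tested. *Meg3* was higher in replicate 1 as well, by 0.79 on the log2(CPM + 0.5) scale between the WT replicates and by 0.31 between the G3 *Terc*-/- replicates. *Col1a1*, with the largest WT difference of the feeder markers, moved by 0.76 and 0.56, and *Fn1* by 0.17 and 0.17. *Rian* moved by 0.38 and 0.32, *Igf2* by 0.30 and 0.22, and *H19* by 0.23 and 0.21. These genes were not alone, as 17 of the 44 imprinted genes were higher in replicate 1 of both genotypes. The same held for 3981 of the 14896 genes tested. The 17 include *Magel2* (0.54 and 0.31), *Ascl2* (0.24 and 0.43) and *Kcnq1ot1* (0.18 and 0.55). *Cdkn1c* (-0.01 and 0.10) and *Dlk1* (0.18 and -0.13) did not move this way. The correlation between the replicate differences of the genotypes was 0.457 over the 27 feeder markers tested, 0.184 over the 42 imprinted genes and 0.0896 over all genes tested, where the points share the same 4 libraries and their depths. The part of feeder RNA in the level of each gene was not tested.

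**Figure D2:**
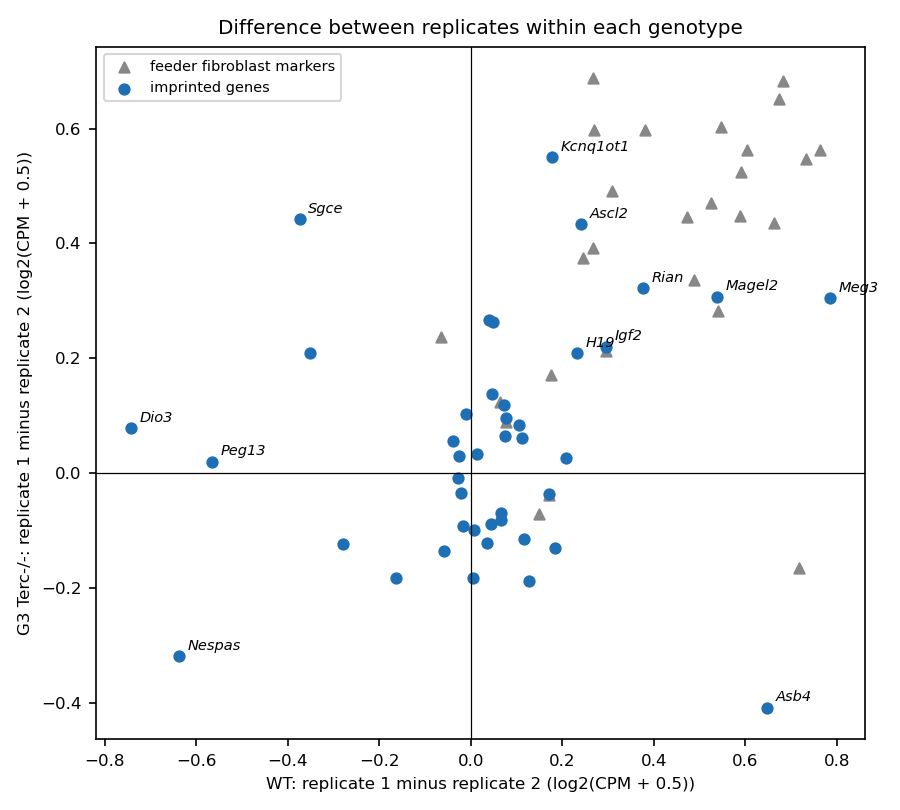
Difference between replicate 1 and replicate 2 on the log2(CPM + 0.5) scale, in WT libraries (x axis) and in G3 Terc-/- libraries (y axis). Blue points are the 42 imprinted genes tested and grey triangles the 27 feeder fibroblast markers tested. Most feeder markers lie in the upper right, as do 17 imprinted genes, among them *H19*, *Igf2*, *Meg3*, *Rian*, *Magel2*, *Ascl2* and *Kcnq1ot1*. *Dio3*, *Nespas* and *Peg13* were lower in WT replicate 1 than in WT replicate 2.

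The paternally expressed genes of the *Peg3* cluster on chromosome 7 fell together. *Peg3* (identifier 18616, chromosome 7 from 6703892 to 6730462), a large zinc-finger protein, had 5915 and 6117 counts in WT, against 3719 and 2997 in G3 *Terc*-/-. It fell from 273.4 ± 3.55 (SD, n = 2) to 166.0 ± 2.44 CPM (SD, n = 2), with a log2 fold change of -0.72 (SE 0.05, edgeR adjusted p = 1.39e-15). *Usp29*, a ubiquitin-protease gene read from the opposite strand, had 179 and 181 counts in WT, against 110 and 104 in G3 *Terc*-/-, and fell with a log2 fold change of -0.62 (SE 0.16, edgeR adjusted p = 0.00104). *Zim1*, a maternally expressed zinc-finger gene, had 28 and 24 counts in WT, against 27 and 23 in G3 *Terc*-/- (log2 fold change 0.07, edgeR adjusted p = 0.895). The 17 tested neighbours differed between genotypes by a median of 0.25 on the log2 scale, in the direction opposite to *Peg3* and *Usp29*. Within 5 Mb the median was 0.02 over 83 genes, with 18 called higher and 18 lower. By their gene coordinates, the starts of *Peg3* and *Usp29* lie 97 bases apart. The promoter windows use slightly different starts, and the 250 bases before each of those share 163, so 1 stretch is shown for both. That of *Usp29* holds 14 CG pairs (17 in its full window of 300 bases) and no ZFP57 hexamer.
Usp29 (chr7:6730333-6730582, plus strand): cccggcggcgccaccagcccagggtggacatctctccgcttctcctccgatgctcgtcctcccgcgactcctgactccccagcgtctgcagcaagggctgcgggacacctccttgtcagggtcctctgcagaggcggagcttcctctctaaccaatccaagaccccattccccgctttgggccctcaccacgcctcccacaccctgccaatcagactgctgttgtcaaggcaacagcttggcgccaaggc

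The *Snrpn*-*Ndn* cluster, also on chromosome 7, corresponds to the human Prader-Willi region, and all 4 listed genes are paternally expressed. Here 3 rose. *Magel2* (identifier 27385, chromosome 7 from 62376979 to 62381640), a MAGE-family gene that acts with ubiquitin ligases, had 45 and 28 counts in WT, against 135 and 88 in G3 *Terc*-/-. Its level rose 3.28-fold, from 1.66 ± 0.564 (SD, n = 2) to 5.46 ± 0.894 CPM (SD, n = 2), with a log2 fold change of 1.72 (SE 0.23, edgeR adjusted p = 5.22e-08). *Ndn*, which encodes the related protein necdin, had 200 and 196 counts in WT, against 294 and 200 in G3 *Terc*-/- (log2 fold change 0.44, SE 0.13, edgeR adjusted p = 0.00529). The rise of *Ndn* rested on G3 *Terc*-/- replicate 1, without which the log2 fold change was 0.28 (adjusted p = 0.155). *Snrpn*, whose product joins the spliceosome, rose from 3338 and 3455 counts to 4468 and 3698 counts (log2 fold change 0.39, SE 0.05, edgeR adjusted p = 4.00e-08). Its counts were nearly those of *Snurf* (3344 and 3460, then 4478 and 3700), which is made from the same transcript, so the pair is 1 measurement. *Peg12*, an intronless gene of the same cluster, had 115 and 144 counts in WT, against 95 and 86 in G3 *Terc*-/-, and its log2 fold change of -0.39 did not pass the threshold (edgeR adjusted p = 0.0709). Without WT replicate 1 it was -0.54 (adjusted p = 0.0420). The 7 tested neighbours differed between genotypes by a median of 0.32 on the log2 scale, but they include *Snurf* and the imprinted genes *Mkrn3* and *Ube3a*. Without these 3 the median was 0.30 over 4 genes, and within 5 Mb it was 0.08 over 38 genes.

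In the *Kcnq1ot1* cluster at the far end of chromosome 7, 3 of the 6 maternally expressed genes listed fell and 1 rose. *Cdkn1c* (identifier 12577, chromosome 7 from 143458339 to 143461059), the cyclin-dependent kinase inhibitor p57, had 506 and 518 counts in WT, against 284 and 217 in G3 *Terc*-/-, and fell from 23.3 ± 0.135 (SD, n = 2) to 12.3 ± 0.646 CPM (SD, n = 2). Its log2 fold change was -0.91 (SE 0.10, edgeR adjusted p = 4.19e-10). *Phlda2* (chromosome 7 from 143501545 to 143503145), which limits growth of the placenta, had 1104 and 1071 counts in WT, against 571 and 498 in G3 *Terc*-/-, with a log2 fold change of -0.90 (SE 0.08, edgeR adjusted p = 2.80e-13). For both genes the G3 *Terc*-/- libraries lay below the WT libraries, with a fold change a little under 2. *Ascl2*, a transcription factor of trophoblast, had 94 and 79 counts in WT, against 63 and 36 in G3 *Terc*-/- (log2 fold change -0.69, SE 0.23, edgeR adjusted p = 0.0122). The call of *Ascl2* was lost without WT replicate 1 (-0.55, adjusted p = 0.130) and without G3 *Terc*-/- replicate 2 (-0.47, adjusted p = 0.156). *Cd81*, a tetraspanin of the cell surface, rose from 3504 and 3289 counts to 5276 and 4159 counts (log2 fold change 0.59, SE 0.05, edgeR adjusted p = 1.65e-12). *Slc22a18*, a transporter gene, had 81 and 108 counts in WT, against 124 and 87 in G3 *Terc*-/-, and *Tssc4* had 577 and 506, then 541 and 437. Neither passed the threshold, with log2 fold changes of 0.28 (adjusted p = 0.239) and -0.03 (adjusted p = 0.841). The paternally expressed noncoding RNA *Kcnq1ot1*, which silences the cluster on its own chromosome, had only 46 and 40 counts in WT, against 55 and 28 in G3 *Terc*-/- (log2 fold change 0.06, SE 0.28, edgeR adjusted p = 0.881). The SE of *Kcnq1ot1* was thus several times that of *Cdkn1c* or *Phlda2*. The 21 tested neighbours differed between genotypes by a median of 0.05 on the log2 scale. An antisense gene, *Gm44732*, covers 30.7% of the exon bases of *Cdkn1c*, and the strand setting of the counting is not given in the sources used here. The 250 bases before the start of *Phlda2*, the gene of the cluster with the smallest p, hold 21 CG pairs and no ZFP57 hexamer. Its full window of 300 bases holds 26 CG pairs.
Phlda2 (chr7:143502525-143502774, minus strand): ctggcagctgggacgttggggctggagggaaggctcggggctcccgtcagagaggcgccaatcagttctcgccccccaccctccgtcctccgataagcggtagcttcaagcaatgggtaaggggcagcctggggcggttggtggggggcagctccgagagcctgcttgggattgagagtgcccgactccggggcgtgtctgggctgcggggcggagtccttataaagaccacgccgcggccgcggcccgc

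Markers of trophoblast, the cells that form the placenta, were read beside these genes. In a list of 13 trophoblast markers, chosen after values had been seen, 10 were tested. Of these, 6 were lower (60%, against 21.8% of all genes tested), by p first *Krt18*, *Krt8* and *Krt7*. Only 1 was higher (10%, against 21.7%), namely *Eomes* with a log2 fold change of 1.63. The summed level of the 13 was 349 and 341 CPM in WT, against 210 and 207 CPM in G3 *Terc*-/-. *Krt8* and *Krt18*, keratins of many epithelia, made up 91.8% of the difference, and the other 11 summed to 145 and 152 CPM in WT, against 139 and 136 CPM in G3 *Terc*-/-. Most of that remainder was *Tfap2c*, with a mean of 113 CPM in WT, against 99.9 in G3 *Terc*-/-. Within it *Eomes* rose from 8.75 to 27.1 CPM, while *Krt7* fell from 12.6 to 1.38 CPM (log2 fold change -3.2). *Hand1* (-1.94) and *Gata3* (-1.06) fell as well. *Cdx2* and *Gcm1* did not pass the threshold. The defining placental markers *Prl3d1* and *Tpbpa* were at 0 in every library. The part of trophoblast-like cells in the levels of *Phlda2*, *Ascl2* and *Cdkn1c* was not tested.

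On chromosome 6, 4 of the 6 imprinted genes were lower (66.7%, against 21.8% of all genes tested). None was higher, against 21.7% of all genes tested. The median log2 fold change was -0.35, against 0.05 over the 36 genes tested on other chromosomes, of which 12 were higher (33.3%) and 11 lower (30.6%). The summed level of the 6 genes was 825 and 792 CPM in WT, against 445 and 447 CPM in G3 *Terc*-/-. *Peg10* (identifier 170676, chromosome 6 from 4747306 to 4760517), a paternally expressed gene derived from a retrotransposon and needed for the placenta, had 11535 and 11123 counts in WT, against 5275 and 4148 in G3 *Terc*-/-. It fell from 515 ± 18.8 (SD, n = 2) to 232.6 ± 7.44 CPM (SD, n = 2), with a log2 fold change of -1.15 (SE 0.05, edgeR adjusted p = 1.84e-22). The maternally expressed *Ppp1r9a* (identifier 243725, chromosome 6 from 4902872 to 5165661), which encodes the actin-binding protein neurabin, had 955 and 960 counts in WT, against 346 and 278 in G3 *Terc*-/-. Its level went from 43.5 ± 0.308 (SD, n = 2) to 15.4 ± 0.259 CPM (SD, n = 2), 2.82-fold lower, with a log2 fold change of -1.50 (SE 0.08, edgeR adjusted p = 7.20e-19). A gene known as paternally expressed and one known as maternally expressed, both of 1 cluster, thus fell. Which allele gave their reads in these ESCs was not measured. The other two genes of the cluster were read at lower depth and did not pass the threshold. *Sgce*, a paternally expressed sarcoglycan gene that starts next to *Peg10*, had 94 and 127 counts in WT, against 108 and 63 in G3 *Terc*-/- (log2 fold change -0.25, SE 0.20, edgeR adjusted p = 0.307). The maternally expressed *Asb4* had 17 and 7 counts in WT, against 11 and 15 in G3 *Terc*-/- (log2 fold change 0.24, SE 0.49, edgeR adjusted p = 0.724).

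The genes around *Peg10* that are not among the listed imprinted genes were lower as well. Of the 9 tested within 1 Mb of the cluster, 5 were lower at an adjusted p under 0.05 and none was higher, with a median log2 fold change of -0.85. In a window of 5 Mb, chosen after the values were seen, 15 of 20 were lower, none was higher, and the median was -0.86. The log2 fold change was -0.85 for *Bet1*, -0.90 for *Casd1*, -0.87 for *Pon2* and -1.01 for *Pdk4*, of which *Casd1* and *Pon2* have also been described as imprinted. Without these and *Pon3* the median within 1 Mb was -0.79 over 6 genes. *Col1a2*, a fibroblast collagen gene that starts 0.242 Mb from *Peg10*, had a log2 fold change of 0.21 (edgeR adjusted p = 0.184). Around the other clusters and single genes, the medians of the tested neighbours within 1 Mb lay between -0.23 for *Slc38a4* and 0.60 for *Grb10*. The number of copies of this stretch was not analysed here.

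The other imprinted pair on chromosome 6 lies farther along, and its change was smaller. *Mest* (identifier 17294, chromosome 6 from 30733506 to 30748466), a paternally expressed hydrolase-like gene, had 2735 and 2710 counts in WT, against 2015 and 1805 in G3 *Terc*-/- (log2 fold change -0.38, SE 0.06, edgeR adjusted p = 5.59e-07). The maternally expressed *Copg2*, a subunit of a vesicle coat, fell from 2686 and 2643 counts to 2106 and 1844 counts (log2 fold change -0.31, SE 0.06, edgeR adjusted p = 2.49e-05). The genes overlap tail to tail, with 23.1% of the exon bases of *Mest* and 17.8% of those of *Copg2* shared on opposite strands. Depending on the strand setting, reads there may have been counted for both genes. The 13 tested neighbours differed between genotypes by a median of -0.15 on the log2 scale, with 6 lower and 1 higher.

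**Figure D3:**
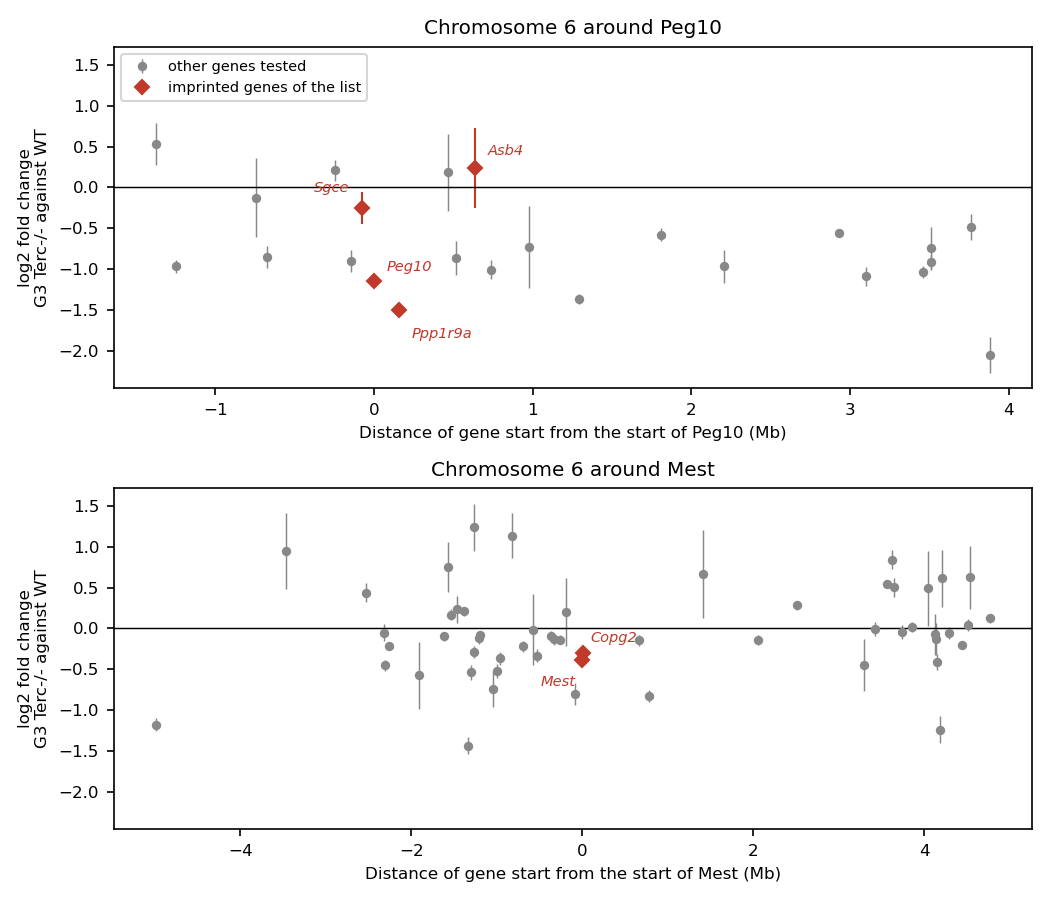
Log2 fold change, G3 Terc-/- against WT, of the genes tested within 5 Mb of *Peg10* (upper panel) and of *Mest* (lower panel) on chromosome 6, by distance of the gene start in Mb. Red diamonds are listed imprinted genes, grey points other genes, and bars are standard errors. Around *Peg10* most genes lie below 0, with a median of -0.86 over the 20 other genes, while around *Mest* they lie on both sides of 0, with a median of -0.08 over 53.

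Among the genes listed alone, those with adjusted p under 0.05 were split between directions. *Grb10*, an adaptor protein that dampens insulin and growth factor signalling and is maternal in most tissues and paternal in neurons, rose from 3883 and 4001 counts to 6062 and 5111 counts (log2 fold change 0.63, SE 0.05, edgeR adjusted p = 7.44e-14). Its 6 tested neighbours had a median of 0.60, but 1 of them was called higher and 1 lower, 1 was the imprinted *Ddc*, and the median over 15 genes within 5 Mb was -0.03. *Impact*, a paternally expressed regulator of translation, rose from 2471 and 2613 to 3451 and 3121 counts (log2 fold change 0.50, SE 0.06, edgeR adjusted p = 7.34e-10). *Nnat*, a paternally expressed membrane proteolipid, had 353 and 347 counts in WT, against 460 and 343 in G3 *Terc*-/- (log2 fold change 0.32, edgeR adjusted p = 0.00839). The call of *Nnat* was lost without G3 *Terc*-/- replicate 1 (0.24, adjusted p = 0.104) and without WT replicate 2 (0.29, adjusted p = 0.0807). The amino acid transporter *Slc38a4*, paternally expressed in placenta, fell from 5413 and 5561 to 3974 and 3485 counts (log2 fold change -0.43, SE 0.05, edgeR adjusted p = 3.26e-09), where its 14 tested neighbours had a median of -0.23. *Zdbf2*, paternally expressed, fell from 3670 and 3412 to 2826 and 2649 counts (log2 fold change -0.24, edgeR adjusted p = 0.000786), a call lost without WT replicate 1 (-0.18, adjusted p = 0.0783). *Igf2r*, the maternally expressed receptor that clears IGF2, had 2828 and 2732 counts in WT, against 2631 and 1992 in G3 *Terc*-/-. Its log2 fold change of -0.15 (SE 0.06, edgeR adjusted p = 0.0321) missed the threshold without WT replicate 1 (adjusted p = 0.311), without WT replicate 2 (adjusted p = 0.0777) and without G3 *Terc*-/- replicate 2 (adjusted p = 0.210).

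The remaining clusters are pairs in which an imprinted transcript lies within or across another gene. In the *Gnas* cluster, *Gnas*, which encodes the stimulatory G protein subunit, fell from 4761 and 4966 to 4142 and 3279 counts (log2 fold change -0.27, SE 0.05, edgeR adjusted p = 3.23e-05). Its paternally expressed antisense RNA *Nespas* had 79 and 131 counts in WT, against 142 and 148 in G3 *Terc*-/- (log2 fold change 0.60, SE 0.18, edgeR adjusted p = 0.00704). Exons of the pair overlap on opposite strands over 38.5% of *Nespas*, and the call of *Nespas* was lost without WT replicate 1 (0.28, adjusted p = 0.289) and without G3 *Terc*-/- replicate 2 (0.43, adjusted p = 0.0835). In the *Mcts2*-*H13* pair, the paternally expressed retrogene *Mcts2* fell from 390 and 385 to 315 and 214 counts (log2 fold change -0.43, edgeR adjusted p = 0.00116). The maternally expressed host *H13*, a signal peptide peptidase, rose from 1046 and 1006 to 1303 and 1003 counts (log2 fold change 0.29, edgeR adjusted p = 0.000761). *Mcts2* and *Zrsr1* are copies of the genes *Mcts1* and *Zrsr2*, so reads may be misassigned between copies. Paternally expressed *Peg13*, a noncoding RNA within an intron of *Trappc9*, had 53 and 85 counts in WT, against 116 and 94 in G3 *Terc*-/- (log2 fold change 0.73, SE 0.20, edgeR adjusted p = 0.00354), a call lost without WT replicate 1 (0.43, adjusted p = 0.156). The maternally expressed *Trappc9* had 636 and 595, then 613 and 547 counts (log2 fold change 0.04, edgeR adjusted p = 0.729). In the *Zrsr1*-*Commd1* pair, paternally expressed *Zrsr1* had 450 and 424, then 435 and 337 counts (log2 fold change -0.06, adjusted p = 0.651), and maternally expressed *Commd1* had 990 and 960, then 1024 and 885 counts (log2 fold change 0.09, adjusted p = 0.296), both from edgeR. In these pairs, *Gnas* and *Nespas*, and *Mcts2* and *H13*, passed the test in opposite directions, while *Trappc9*, *Zrsr1* and *Commd1* did not pass.

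**Figure D4:**
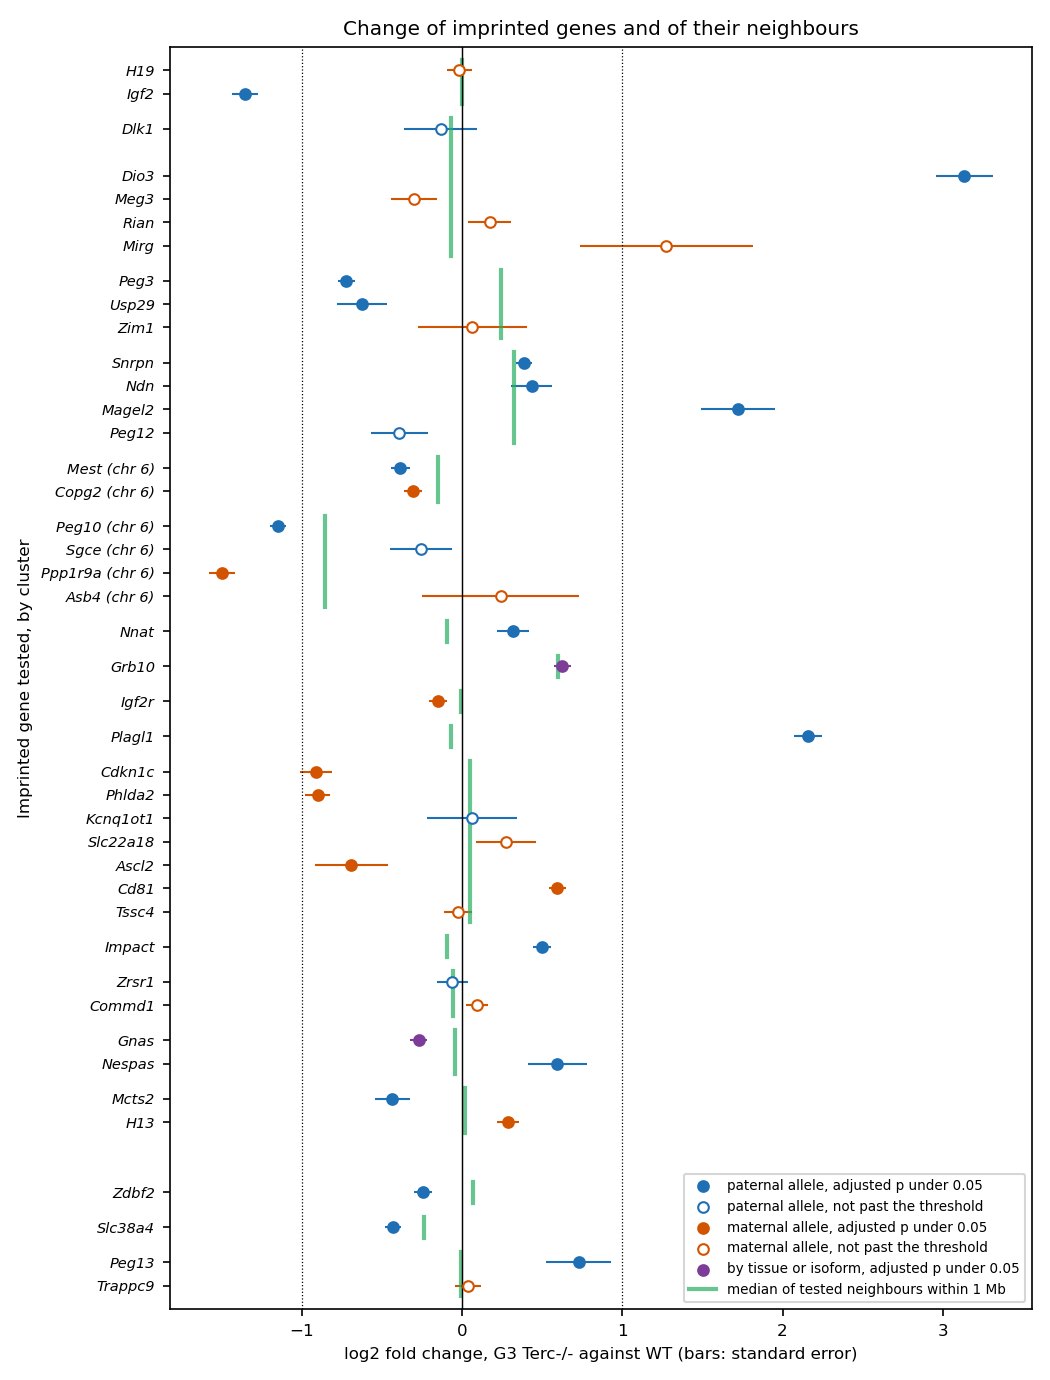
Log2 fold change, G3 Terc-/- against WT, of the 42 imprinted genes tested, with standard errors as bars, ordered by cluster. Colour gives the allele known to be expressed, filled points have an adjusted p under 0.05, green lines are the median of the tested neighbours within 1 Mb, and dotted lines mark a fold change of 2. *Dio3*, *Plagl1*, *Magel2* and *Igf2* lie far from the line of their neighbours, and *Peg10* and *Ppp1r9a*, at -1.15 and -1.50, lie below a neighbour median that is itself at -0.85.

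By the allele known to be expressed, 9 of the 22 paternally expressed genes tested were higher (40.9%, against 21.7% of all genes tested) and 8 lower (36.4%, against 21.8%), with a median log2 fold change of -0.10. Of the 18 maternally expressed genes, 2 were higher (11.1%), namely *Cd81* and *H13*, and 6 lower (33.3%), namely *Copg2*, *Ppp1r9a*, *Igf2r*, *Cdkn1c*, *Phlda2* and *Ascl2*, with a median of 0.01. Outside chromosome 6, the counts were 9 higher (47.4%) and 6 lower (31.6%) of 19 paternally expressed genes. Of 15 maternally expressed genes there, 2 were higher (13.3%) and 4 lower (26.7%). The split between alleles was not tested. The allele labels are those known for each gene, were not measured in these ESCs and may not hold in them. DESeq2 did not call *Ndn*, *Nnat*, *Nespas* and *Peg13* among the paternally expressed genes that were higher. Nor did it call *Ascl2* and *Igf2r* among the maternally expressed genes that were lower. The paternally expressed genes that passed the fold change cutoff went both ways, with *Dio3*, *Plagl1* and *Magel2* higher and *Igf2* and *Peg10* lower.

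Genes that set or keep imprints were read as a further list of 30, all of them tested. Of these, 14 were lower (46.7%, against 21.8% of all genes tested) and 5 higher (16.7%, against 21.7%), with a median log2 fold change of -0.11. The 3 with the smallest p among the lower were *Dnmt3b*, a DNA methyltransferase that adds new methylation, *Cbx3*, a heterochromatin protein, and *Dppa3*, which protects maternal methylation in the zygote. *Dnmt3b* fell from 11230 and 11596 to 5129 and 4405 counts (log2 fold change -1.13, edgeR adjusted p = 1.59e-22), *Cbx3* had a log2 fold change of -1.24 (adjusted p = 9.09e-21) and *Dppa3* one of -1.22 (adjusted p = 2.94e-17). *Cbx3* and *Dppa3* both lie on chromosome 6. Among the higher was *Zfp57*, an imprint reader, with a log2 fold change of 0.44 (edgeR adjusted p = 5.29e-10). *Trim28*, through which ZFP57 acts, was at 0.41 (adjusted p = 9.46e-10), and *Tet2*, which oxidizes methylated cytosine, at 0.46 (adjusted p = 1.17e-09). *Dnmt1*, the methyltransferase that copies methylation after replication, had 8402 and 8384 counts in WT, against 8303 and 6382 in G3 *Terc*-/- (log2 fold change -0.07, edgeR adjusted p = 0.227). Its partner *Uhrf1* had a log2 fold change of 0.02 (adjusted p = 0.818), *Setdb1*, a histone methyltransferase recruited by TRIM28, one of -0.03 (adjusted p = 0.711), and *Ctcf* one of 0.04 (adjusted p = 0.586). DNA methylation itself was not analysed here.

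A second list held 33 imprinted genes beyond the 44, of which 32 were matched and 22 tested. Of these 5 were higher (22.7%, against 21.7% of all genes tested) and 9 lower (40.9%, against 21.8%), and the median log2 fold change was 0.17. The 3 with the smallest p among the lower were *Sfmbt2*, a paternally expressed Polycomb-group gene (1225 and 1330 counts in WT, 429 and 340 in G3 *Terc*-/- libraries, log2 fold change -1.61, edgeR adjusted p = 7.79e-21), *Gab1*, a signalling adaptor (-0.72, adjusted p = 1.27e-15), and *Dhcr7*, an enzyme of cholesterol synthesis (-0.72, adjusted p = 2.07e-11). The 3 among the higher were the chloride channel *Ano1*, with 17 and 18 counts in WT, against 86 and 61 in G3 *Terc*-/- (log2 fold change 2.18, edgeR adjusted p = 3.73e-08), *Snurf* (0.39, adjusted p = 4.04e-08), which repeats *Snrpn*, and *Ddc*, the decarboxylase next to *Grb10* (0.77, adjusted p = 5.36e-07). *Airn*, the noncoding RNA that silences *Igf2r*, had 3 and 3 counts in WT, against 1 and 3 in G3 *Terc*-/- and was not tested.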

How the data were processed

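Poly(A) RNA was sequenced from 2 libraries each of WT and G3 *Terc*-/- ESCs. The authors aligned the reads to mm10, and the submitters' processing notes name Trim Galore, STAR and featureCounts, with versions and strand setting not given in the sources used here. They deposited raw counts per gene, without normalization. The deposited table of transposable elements was not used here. Gene identifiers were matched to RefSeq genes of GRCm38.p6 (24061 of 24116), and exon lengths and overlaps came from GENCODE M21.

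Counts were fitted over all genes with edgeR 4.0.16 in R 4.3.3 (filterByExpr, TMM, quasi-likelihood test on genotype alone, Benjamini-Hochberg adjustment over 14896 genes). The imprinted genes and gene lists were chosen with earlier results of these data known, and the primitive endoderm and trophoblast lists after values were seen. Of 12 tested in the primitive endoderm list, 2 were higher (*Lama1* and *Lamc1*) and 5 lower (first *Dab2*, *Col4a2* and *Col4a1*). These were 16.7% and 41.7%, against 21.7% and 21.8% of all genes tested. Every imprinted gene is named, and of each further list up to 3 genes called in each direction, those with the smallest p. Other marker genes were named, and the motif counts by gene, the marker sums without their leading genes and the neighbour medians without other imprinted genes were added, after values were seen. Cutoffs were an adjusted p of 0.05, or a fold change of 2 with an unadjusted *P* of 0.05. Alternatives were DESeq2 1.42.0, its size factors in edgeR, other filters, the replicate number as a block, genes of chromosome 6 left out and each library left out. In tests on simulated data with 2-fold changes in 200 of 14731 genes, edgeR recovered 84%. Replicates differed beyond sampling noise (chi-square per gene 2.47 for WT and 3.74 for G3 *Terc*-/-). With 2 against 2, the smallest p of an exact two-sided permutation test is 0.333. Figures were drawn with matplotlib 3.10.9.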

Additional observations from a re-analysis of the deposited data

How the results depend on the processing

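Of the 27 imprinted genes called, DESeq2 kept 21 (8 higher and 13 lower) and lost *Ascl2*, *Nespas*, *Igf2r*, *Ndn*, *Nnat* and *Peg13*. All 27 were kept with DESeq2's size factors in edgeR, with no filter (*Meg3* added) and with a CPM of at least 1 in all libraries. With the replicate block in edgeR, 12 were higher and 16 lower, *Meg3* being added (adjusted p = 0.0114). The labels link same-numbered replicates by number alone, and the correlation of their deviations was 0.0896 over all genes. Over the 27 feeder markers tested it was 0.457, and most feeder markers were higher in replicate 1 of both genotypes. Leaving out 1 library gave between 23 and 26 calls, with 1 library assumed to vary like the others. With the genes of chromosome 6 left out, 1 gene in place of 3 was lower at the cutoffs of fold 2 and *P* 0.05, and the median log2 fold change was 0.0505 in place of -0.0206. With each library left out, that median lay between -0.122 and 0.0949, so its sign was not fixed. Fold changes of 8 genes not called with all libraries changed sign in at least 1 of these fits, and lay between -0.13 and 0.10 for *H19*, -0.65 and 0.16 for *Meg3*, -0.0176 and 0.381 for *Rian*, -0.0530 and 0.189 for *Zim1*, -0.27 and 1.02 for *Asb4*, -0.35 and 0.35 for *Kcnq1ot1*, -0.130 and 0.0808 for *Tssc4*, and -0.0200 and 0.0973 for *Trappc9*. Of these 8, *Meg3* alone passed the threshold in some of these fits (without WT replicate 2 or without G3 *Terc*-/- replicate 1). Depth limited most *Mirg*, *Asb4*, *Zim1* and the other genes of the 9 tested with a mean count under 100.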
